A study of Mus musculus with 8 samples.

Results

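The clustered histone genes are the 69 rows of the deposited gene count table whose Ensembl ID carries a mouse symbol beginning with Hist1h, Hist2h, Hist3h or Hist4h, out of 54838 genes in all. A further row with the suffix -ps held 1 count over all libraries and was dropped. Of the 69, 56 carry a Hist1 symbol, 10 a Hist2 symbol, 2 a Hist3 symbol and 1 a Hist4 symbol. The Hist1 cluster lies on chromosome 13, but Hist1h2al, a processed pseudogene at chr13:51202727-51203065, stands far outside it. They comprise 6 genes of linker histone H1, 20 of H2A, 18 of H2B, 12 of H3 and 13 of H4, and 67 of them are annotated as protein coding.

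RNA was measured in male mouse induced pluripotent stem cells, called ESC in the sample titles, from a pair of independent clones, cultured over irradiated feeders with serum, LIF, a MEK inhibitor and a GSK3 inhibitor. Each of 4 states had 2 libraries. Mitotic cells had been moved to gelatin, treated with nocodazole, a microtubule poison, at 200 ng/ml for 6 h and shaken off. Early G1 cells were the same kind of cells 1 h after nocodazole was washed out, late G1 cells 3 h after, and asynchronous cells are labelled as unsynchronised. The labels give the clones as biological replicates but do not say which clone a replicate number marks in each state, and p-values measure the spread between these libraries. The RNA extraction described in the labels names asynchronous cells alone.

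Histone genes of the clusters supply the histones that package newly copied DNA, and their mRNAs are known to accumulate in S phase. Most of these mRNAs end not in a poly(A) tail but just after a conserved stem-loop, which is bound by the protein Slbp and cut by a dedicated processing complex. Some clustered genes can also use a poly(A) site further downstream and give a polyadenylated mRNA. The libraries were made with a kit that selects poly(A) RNA, so the counts reflect polyadenylated or otherwise captured histone mRNA and not the whole pool.

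The stem-loop is printed here for genes on which the results turn. It was searched for on the sense strand of the GENCODE M21 transcripts (GRCm38) as a run of GG, CTTTT, AG and CC with any letters between them, as spaced in the sequences shown. It stood in an annotated transcript of 44 members (63.8%), against 0.0813% of the 55381 other annotated genes, whose transcripts differ in length from those of the members. Some members, such as Hist1h1b, have annotated transcripts that end at the stop codon and could not show it. The other members cannot be said to lack a stem-loop. The capitals mark the 16 bases of the pattern, whose coordinates are given. The first 3 genes rose in late G1 and have annotated transcripts that run far past the stem-loop. The last 3 were lower in cells 1 h and 3 h after release than in asynchronous cells.
Hist1h1c, chr13:23739512-23739527, plus strand: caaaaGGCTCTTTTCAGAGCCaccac
Hist1h4i, chr13:22040966-22040981, minus strand: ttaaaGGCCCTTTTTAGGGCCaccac
Hist1h2bh, chr13:23542928-23542943, minus strand: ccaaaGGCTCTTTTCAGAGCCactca
Hist1h4h, chr13:23531458-23531473, plus strand: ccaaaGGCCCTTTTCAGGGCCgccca
Hist1h3a, chr13:23761890-23761905, minus strand: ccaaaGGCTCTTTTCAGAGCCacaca
Hist3h2ba, chr11:58949349-58949364, plus strand: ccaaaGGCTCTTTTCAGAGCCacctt
The form of Hist1h1c, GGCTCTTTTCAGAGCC, was the commonest and stood in 26 members. The form of Hist1h4h, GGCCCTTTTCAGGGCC, stood in 7 members, all of them H4 genes, and that of Hist1h4i stood in 2. Hence Hist1h1c, Hist1h2bh, Hist1h3a and Hist3h2ba share the same 16 bases although their levels moved differently.

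The members differ in how far the annotation continues after the stem-loop. The annotated transcript of Hist1h1c ran on for 840 bases past it, that of Hist1h4i for 330 and that of Hist1h2bh for 1214. The transcripts of Hist1h4h and Hist1h3a ended 46 and 37 bases past it, and that of Hist3h2ba 169 bases past it. Long transcripts also occurred among members called lower than in asynchronous cells, with 1153 bases past the stem-loop for Hist1h1e, 752 for Hist1h3d and 369 for Hist1h3e. In 22 members a transcript ran at least 100 bases past the stem-loop, and 11 of these also had AATAAA or ATTAAA, the usual poly(A) signals, in their last 50 bases. Such a hexamer stood at an annotated end of 43.9% of the other genes. Hist1h2bc and Hist2h2be, which also rose in late G1, have no match to the pattern in their annotated transcripts. Sequence outside the annotated transcripts, such as the intron of Hist1h2bc, was not searched. The annotated transcript of Hist1h2bc is spliced from an exon at chr13:23684199-23684621 to one at chr13:23692176-23692908. Below, the 22 members with at least 300 annotated bases past the stop codon are called long-ended, and the other 47 short-ended. They are not the same 22 as those that run past the stem-loop, since Hist1h2bc and Hist2h2be are long-ended. The longest short end had 230 bases and the shortest long end 376. The 2 members with no annotated stop codon, among them the pseudogene Hist1h2al, were counted as short-ended. So were members annotated only to the stop codon, such as Hist1h1b, so a short end can reflect incomplete annotation. This division was made after the values had been seen, so its counts are a description.

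The promoters of the clusters show their known elements. RefSeq promoters (GRCm38.p6, 250 bases before to 50 after the start) were matched for 61 members. CCAAT on either strand stood in 85.2% of them, against 37.4% of all 32851 promoters. It was present in each matched H1, H2A, H2B and H3 promoter but in 25% of H4 promoters. TATAAA stood in 55.7% of member promoters and in 13.6% of all promoters. The octamer ATTTGCAT, known as an Oct factor site of H2B genes, stood in 7 of 18 H2A and 6 of 16 H2B promoters, in none of the others, and in 1.74% of all promoters. The H1 box AAACACA stood in 4 of 5 H1 promoters and in 7.18% of all promoters. The 120 bases before the start are shown, with these letters in capitals, for an H1 pair of which Hist1h1c was higher and Hist1h1b lower in late G1 than in asynchronous cells, for Hist1h4i, and for Hist1h2bg, an H2B gene with an octamer.
Hist1h1c, chr13:23738687-23738806, plus strand: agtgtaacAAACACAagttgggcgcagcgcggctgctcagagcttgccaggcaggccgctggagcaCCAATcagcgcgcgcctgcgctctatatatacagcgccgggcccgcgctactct
Hist1h1b, chr13:21780626-21780745, minus strand: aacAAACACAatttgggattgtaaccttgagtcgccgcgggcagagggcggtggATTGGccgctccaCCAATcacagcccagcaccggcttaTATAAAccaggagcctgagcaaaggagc
Hist1h4i, chr13:22041363-22041482, minus strand: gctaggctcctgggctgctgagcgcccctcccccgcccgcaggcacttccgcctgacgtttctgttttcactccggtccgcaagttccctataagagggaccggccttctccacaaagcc
Hist1h2bg, chr13:23571280-23571399, plus strand: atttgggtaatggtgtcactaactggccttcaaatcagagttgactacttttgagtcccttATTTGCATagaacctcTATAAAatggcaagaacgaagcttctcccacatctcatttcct
Hist1h1c and Hist1h1b both carry the H1 box and CCAAT. Hist1h1b also has the exact letters TATAAA, while Hist1h1c has a run of alternating T and A near the start that the search did not count. The stretch shown for Hist1h4i holds none of the searched letters, though TATAAA stood elsewhere in its matched promoter.

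Total counts ran from 20410621 to 25615244 per library, and levels are given as CPM, that is counts scaled to a common library size with edgeR's TMM factors. A count of 3, taken as the floor, stood for 0.116 to 0.152 CPM, which covers counting error alone. Markers of pluripotent cells summed to between 5139 and 6545 CPM in every library. Replicates lay close together in late and early G1 (biological coefficient of variation 0.0416 and 0.0504) and further apart in mitotic (0.172) and asynchronous cells (0.275). Markers of feeder fibroblasts summed to 1016 and 737 CPM in mitotic, to 792 to 1111 CPM in G1, and to 3676 and 2773 CPM in asynchronous cells, with Dcn, Lum and S100a4 at 0 in at least 1 library. Macrophage markers summed to 96.1 and 80.5 CPM in mitotic, to 40.6 to 47.1 CPM in G1, and to 77.6 and 72.8 CPM in asynchronous cells.

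As a family the clustered histone genes were scarce in this poly(A) RNA. They gave 11840 counts over 8 libraries. A filter on low counts (filterByExpr, minimum count 10) passed 29 of the 69 (42.0%), against 67.0% of all protein-coding genes. A member that passed did so partly because some group was high, so counts over the 29 do not describe the family. The median level of the 29 was 0.608 CPM, against 12.1 CPM over all 19101 genes that passed, and 2 of the 29 stood above that median. The passing members were 5 of 6 H1, 3 of 20 H2A, 10 of 18 H2B, 4 of 12 H3 and 7 of 13 H4 genes.

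The counts were concentrated in Hist1h1c, Hist1h2bc and Hist1h4i, which held 64.8% of all member counts. Hist1h1c gave 84.8% of the H1 counts, Hist1h2bc 66.1% of the H2B counts and Hist1h4i 57.4% of the H4 counts. Neither H2A nor H3 had such a member, and these classes gave 6.74% and 4.70% of all member counts. Per length of annotated exon, Hist1h1c stood at 22.7 ± 2.05 CPM per kb and Hist1h2bc at 22.5 ± 0.139 CPM per kb in late G1, indistinguishable within their spread, with Hist1h4i at 10.7 ± 1.00 CPM per kb (SD, n = 2). Averaged over all libraries, Hist1h1c was higher per length than 76.1% of the genes that passed, and Hist2h2be, the fourth by count, than 25.8%.

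The other 40 members, which were not tested, had totals of 0 to 49 counts over 8 libraries, with a median of 16.5 and at most 21 counts in any library. Their summed level was 2.99 and 3.11 CPM in mitotic, 3.02 and 2.63 CPM in early G1, 3.33 and 3.61 CPM in late G1, and 3.70 and 9.68 CPM in asynchronous cells. The second asynchronous library stood well above the other 7. Hist1h1t, Hist1h2aa and Hist1h2ba, known from the male germ line, summed to between 0 and 0.236 CPM per library. Hist2h2aa1, Hist2h2aa2, Hist2h3c1, Hist2h3b, Hist2h2bb, Hist1h2ao, Hist1h2ap and Hist1h2br were at 0 in every library, which allows a level of up to the floor of 3 counts in each.

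Many members are near-identical to others over part of their length, and the part of this in the low counts was not tested. Reads were 50 bases long, and a read shared by several genes cannot be placed. How the counting treated such reads is not given in the sources used here. In the members that were tested a median of 75.2% of the 50-base windows of the annotated transcripts occurred in no other annotated gene, against 33.6% in those not tested. For 5 of the 8 members at 0 the share was under 12%. Hist2h2bb, at the other end, was at 0 with 100% of its windows its own. Hist1h3e (26.6%), Hist1h2bk (25.8%), Hist1h2al (32.4%) and Hist1h2bj (40.6%), which are named below, are therefore uncertain as single genes. Hist3h2a, Hist1h2ac and Hist1h2al overlap other annotated genes, and Hist1h1e and Hist1h2be overlap each other.

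**Figure D1:**
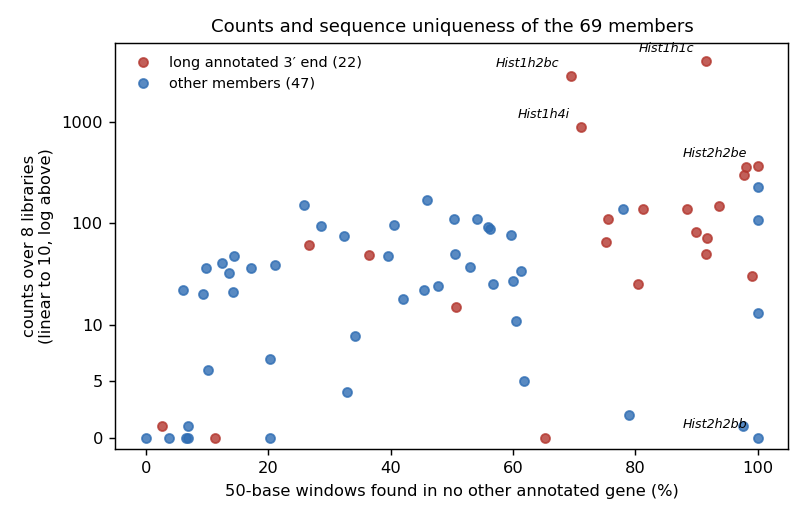
Counts summed over 8 libraries (vertical axis, linear to 10 and logarithmic above) against the share of 50-base transcript windows found in no other annotated gene (horizontal axis, percent) for the 69 members, long-ended ones in red and the others in blue. Hist1h1c, Hist1h2bc and Hist1h4i stand above all other members, and the members at 0 include Hist2h2bb with 100% of its windows its own.

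After release from mitosis 5 members were called higher in late G1. Late G1 cells had more Hist1h1c, Hist1h2bc, Hist1h4i, Hist2h2be and Hist1h2bh mRNA than mitotic cells, by 2.09-fold to 4.43-fold, and no tested member was called lower. These were 5 of the 29 tested members (17.2%), where 9.48% of all tested genes were called, 5.43% higher and 4.04% lower. Markers of other cells moved in the same comparisons: 5 of the 6 tested macrophage markers were lower in early G1 and 4 in late G1 than in mitotic cells, and of the 14 tested feeder fibroblast markers 5 were higher in early G1 and 2 lower in late G1. Their part in the histone results was not tested. The 5 are a linker histone gene, an H4 gene and 3 H2B genes, and each of them is long-ended. Of these, Hist1h2bh passed the filter through the G1 libraries, so its rise does not describe the family. Over all 4 states together, 13 of the 29 differed, where 48.5% of all tested genes did. Every call is at a Benjamini-Hochberg adjusted p under 0.05 over all 19101 genes in edgeR's quasi-likelihood test.

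Hist1h1c (ENSMUSG00000036181, chr13:23738808-23740367), which encodes a linker histone common in somatic cells, stood at 13.0 and 12.9 CPM in mitotic, 25.1 and 20.5 CPM in early G1, 33.2 and 37.7 CPM in late G1, and 16.8 and 18.3 CPM in asynchronous cells. The libraries of the 4 states did not overlap, and the order was mitotic, asynchronous, early G1, late G1. It was 2.73-fold higher in late G1 than in mitotic cells (log2 fold change 1.45 ± 0.16 SE, adjusted p = 0.00362). At 1 h it was already 1.76-fold higher than in mitotic cells (0.81 ± 0.16, adjusted p = 0.0322).

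Hist1h2bc (ENSMUSG00000018102, chr13:23684199-23692908), an H2B gene, stood at 5.31 and 11.96 CPM in mitotic, 16.3 and 14.8 CPM in early G1, 25.9 and 26.2 CPM in late G1, and 8.92 and 16.0 CPM in asynchronous cells. Both late G1 libraries lay above the other 6, while the mitotic pair differed by more than either G1 pair. It was 3.02-fold higher in late G1 than in mitotic cells (1.59 ± 0.38, adjusted p = 0.0375). Its rise at 1 h was not called (0.85 ± 0.38, adjusted p = 0.226).

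Hist1h4i (ENSMUSG00000060639, chr13:22040636-22041362), the leading H4 gene, stood at 3.92 and 3.54 CPM in mitotic, 5.38 and 5.29 CPM in early G1, 8.30 and 7.27 CPM in late G1, and 2.15 and 3.80 CPM in asynchronous cells. Mitotic and asynchronous libraries overlapped, and the G1 libraries were above both. Late G1 exceeded mitotic cells 2.09-fold (1.06 ± 0.27, adjusted p = 0.0473), the weakest of the 5 calls.

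Hist2h2be (ENSMUSG00000068854, chr3:96221119-96223738), an H2B gene whose whole annotated transcript is its own at 50 bases, stood at 1.31 and 1.08 CPM in mitotic, 2.64 and 2.24 CPM in early G1, 3.33 and 3.00 CPM in late G1, and 1.23 and 1.47 CPM in asynchronous cells. The mitotic and asynchronous libraries overlapped and all 4 G1 libraries lay above them. The late G1 level was 2.65-fold that of mitotic cells (1.40 ± 0.27, adjusted p = 0.0190).

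Hist1h2bh (ENSMUSG00000114456, chr13:23541714-23543392), a further H2B gene, was present at 0.379 and 0.216 CPM in mitotic, 1.09 and 1.08 CPM in early G1, 1.41 and 1.27 CPM in late G1, and 0.319 and 0.355 CPM in asynchronous cells. It showed the steepest of the 5 rises, 4.43-fold in late G1 over mitotic cells (2.15 ± 0.40, adjusted p = 0.0171), on a total of 138 counts. Its counts were 9 and 5 in mitotic and 8 and 7 in asynchronous cells, so it passed the filter through the G1 libraries. It could therefore hardly be called other than higher in G1 than in those states. With Hist1h1c it was 1 of the 2 members called at 1 h, 3.59-fold above mitotic cells (1.84 ± 0.40, adjusted p = 0.0436). Those 2 are 6.90% of the tested members, against 4.63% of all tested genes called in early G1 over mitotic cells, 3.21% higher and 1.42% lower.

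**Figure D2:**
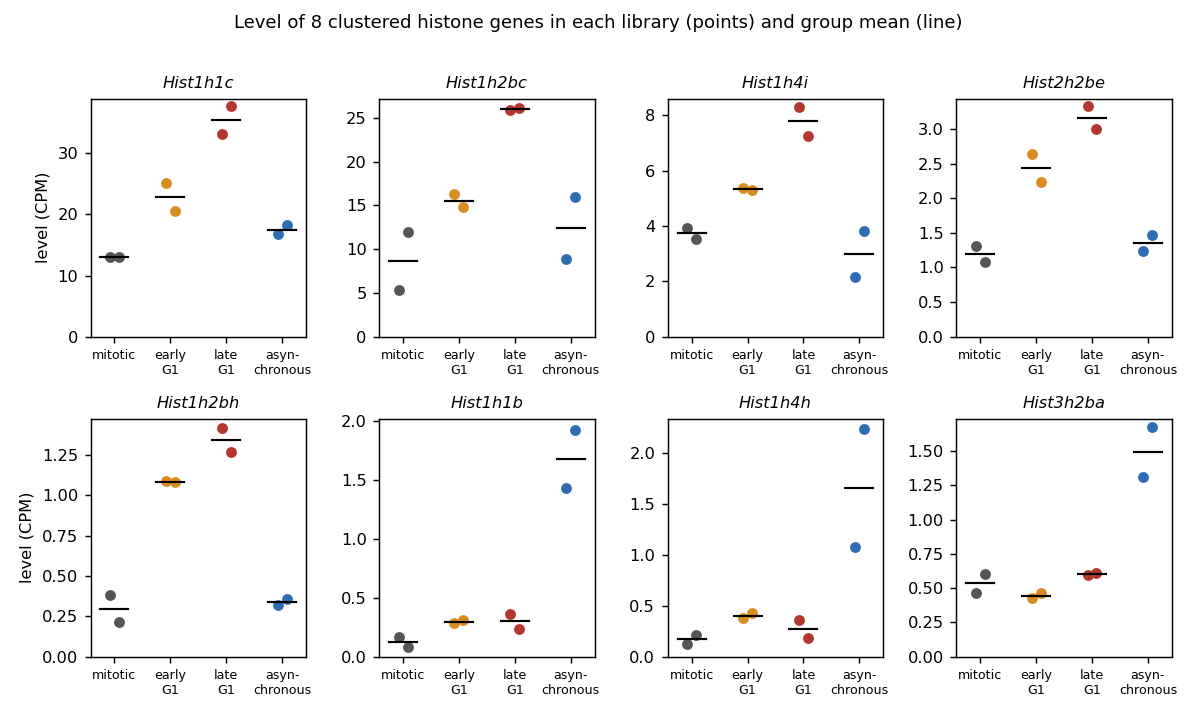
Level in CPM (vertical axes, each from 0) of 8 clustered histone genes in each library (points) with the group mean (line) in mitotic, early G1, late G1 and asynchronous cells. The first 5 genes are highest in late G1, where Hist1h1c reaches 33.2 and 37.7 CPM, and the last 3 are highest in asynchronous cells.

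The calls over mitotic cells depended on the processing and on single libraries, also on some that take no part in the comparison. At 1 h the call of Hist1h1c was lost under 6 of 17 alternatives and that of Hist1h2bh under 8 of 16. With 1 library left out, the log2 ratio of the summed level of all members stayed between 0.47 and 0.71 at 1 h and between 1.03 and 1.28 in late G1. In late G1 the call of Hist1h1c was lost under 1 of 16 alternatives, of Hist1h2bc under 5 of 16 and of Hist2h2be under 6 of 16. That of Hist1h2bh was lost under 6 of 15 and that of Hist1h4i under 7 of 16. The share of all genes called in these fits is not given here, so such losses are not a result about histone genes. Without the second late G1 library Hist1h1c kept a log2 fold change of 1.36 over mitotic cells.

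Between 1 h and 3 h after release no gene of the whole table passed the threshold, so the share called was 0.0% and no member could be. In the same edgeR test 1 member, Hist1h1c, had an unadjusted p under 0.05 (0.00334), as did 3.79% of all tested genes, and DESeq2 called 0 members. In late G1 over early G1, both libraries of Hist1h1c, Hist1h2bc, Hist1h4i, Hist2h2be and Hist1h2bh lay higher. Over the 29 tested members, 16 lay higher without overlap and 2 lower, where 24.4% and 25.9% of all tested genes did so. When these 2 groups were fitted alone, 3 members were called higher in late G1: Hist1h2bc by 0.75, Hist1h1c by 0.64 and Hist1h4i by 0.55 on the log2 scale. The share of 0.0% does not apply to that fit. It also called 5 of 12 regulators of histone gene transcription and 2 of 29 genes of histone mRNA 3′ processing and decay. Calls in that fit were thus not confined to the members, and its share over all genes is not given here.

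The remaining abundant members were not called in late G1 over mitotic cells. Hist3h2a, an H2A gene of the small Hist3 cluster, had 1.18 and 1.60 CPM in mitotic, 1.75 and 1.85 CPM in early G1, 2.01 and 1.88 CPM in late G1, and 2.11 and 3.40 CPM in asynchronous cells. Hist1h1d, an H1 gene, had 1.18 and 1.30 CPM in mitotic, 1.75 and 1.74 CPM in early G1, 1.96 and 1.88 CPM in late G1, and 1.23 and 2.18 CPM in asynchronous cells. Both were above their mitotic levels in all 4 G1 libraries, but neither difference was called in late G1 over mitotic cells (adjusted p = 0.379 for Hist3h2a and 0.261 for Hist1h1d).

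Hist1h3g, the most abundant H3 gene, had 0.885 and 0.475 CPM in mitotic, 0.850 and 0.966 CPM in early G1, 1.32 and 1.69 CPM in late G1, and 0.398 and 0.963 CPM in asynchronous cells. Hist1h2be, an H2B gene, had 0.548 and 0.863 CPM in mitotic, 0.614 and 0.811 CPM in early G1, 1.05 and 1.08 CPM in late G1, and 0.557 and 1.06 CPM in asynchronous cells. Hist1h2ac, an H2A gene, had 0.464 and 0.863 CPM in mitotic, 0.708 and 0.773 CPM in early G1, 1.23 and 1.13 CPM in late G1, and 0.199 and 0.811 CPM in asynchronous cells. Late G1 libraries were the highest for Hist1h3g and Hist1h2ac, and shared the top range with the second asynchronous library for Hist1h2be. None of these 3 was called in any of the 6 comparisons. Hist1h2bk, an H2B gene, had 1.05 and 0.777 CPM in mitotic, 0.472 and 0.850 CPM in early G1, 0.593 and 0.422 CPM in late G1, and 0.796 and 1.72 CPM in asynchronous cells, where both late G1 libraries lay below the mitotic and the asynchronous ones, with no call.

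H2A and H2B genes of the clusters often stand head to head. Among the members there were 13 such pairs, each of an H2A and an H2B gene, with starts 176 to 306 bases apart. Hist1h2ac and Hist1h2bc, whose starts lie 251 bases apart, were the pair in which both were tested. Hist1h2ac gave 138 counts and Hist1h2bc 2798 over the 8 libraries. In the Hist2 cluster, Hist2h2ac gave 34 counts and its neighbour Hist2h2be 367. Other pairs were closer, such as Hist1h2bl and Hist1h2ai with 36 counts each.

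Against asynchronous cells the members went both ways. In late G1, 5 of the 29 tested members were higher and 9 lower than in asynchronous cells, 48.3% in all, where 48.7% of all tested genes were called, 22.7% higher and 26.0% lower. The share is that of the whole table. In early G1, 3 were higher and 9 lower (41.4%, against 46.0% of all tested genes, 21.3% higher and 24.7% lower). In mitotic cells none was higher and 9 were lower (31.0%, against 40.7%, of which 18.3% higher and 22.4% lower). These 3 comparisons share the asynchronous libraries. A member that passed the filter only through those libraries could hardly be called other than lower, so the counts of lower members do not describe the family. Feeder fibroblast markers moved with them: 13 of the 14 tested were lower in mitotic cells and all 14 lower in early and in late G1 than in asynchronous cells, and the part of such cells in the histone results was not tested. In bulk RNA, fewer cells of a type and less RNA per cell cannot be told apart.

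The 5 members higher in late G1 than in asynchronous cells were the same 5 that rose from mitosis. Both comparisons use the same late G1 libraries, so the lists are not independent. Hist1h1c was 2.02-fold higher (1.02 ± 0.16, adjusted p = 0.00150), Hist1h2bc 2.10-fold (1.07 ± 0.37, adjusted p = 0.0423) and Hist1h4i 2.64-fold (1.40 ± 0.28, adjusted p = 0.00437). Hist2h2be was 2.34-fold higher (1.23 ± 0.27, adjusted p = 0.00644) and Hist1h2bh 3.95-fold (1.98 ± 0.39, adjusted p = 0.00441). The calls of Hist1h1c, Hist1h4i and Hist1h2bh held under every alternative processing that gave them a value, though Hist1h2bh had passed the filter through the G1 libraries. In early G1, Hist1h4i, Hist2h2be and Hist1h2bh were above asynchronous cells, by 1.81-fold, 1.81-fold and 3.20-fold (adjusted p = 0.0357, 0.0313 and 0.0104 in edgeR). These early G1 calls were lost under 6 of 17, 9 of 17 and 3 of 16 alternatives.

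The members that were lower than in asynchronous cells included genes of every class. Hist1h1b (ENSMUSG00000058773, chr13:21779883-21780625), a linker histone gene, stood at 0.169 and 0.0863 CPM in mitotic, 0.283 and 0.309 CPM in early G1, 0.365 and 0.235 CPM in late G1, and 1.43 and 1.93 CPM in asynchronous cells. Both asynchronous libraries lay far above the other 6. It was 12.6-fold lower in mitotic than in asynchronous cells (log2 fold change -3.65 ± 0.49, adjusted p = 0.00105) and 5.49-fold lower in late G1 (-2.46 ± 0.44, adjusted p = 0.00269). In mitotic cells these levels were 4 and 2 counts, so the size of that fold is uncertain. Its calls against asynchronous cells held under every alternative processing that gave it a value.

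Hist1h4h (ENSMUSG00000060981, chr13:23531050-23531519), an H4 gene, had 0.126 and 0.216 CPM in mitotic, 0.378 and 0.425 CPM in early G1, 0.365 and 0.188 CPM in late G1, and 1.08 and 2.23 CPM in asynchronous cells. It was 9.31-fold lower in mitotic (-3.22 ± 0.57, adjusted p = 0.00348) and 5.81-fold lower in late G1 than in asynchronous cells (-2.54 ± 0.54, adjusted p = 0.00592). Again the asynchronous pair stood above all other libraries, and the mitotic levels were 3 and 5 counts.

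Hist3h2ba (ENSMUSG00000056895, chr11:58948920-58949533), an H2B gene, had 0.464 and 0.604 CPM in mitotic, 0.425 and 0.464 CPM in early G1, 0.593 and 0.610 CPM in late G1, and 1.31 and 1.67 CPM in asynchronous cells. Its 6 synchronised libraries lay in 1 narrow band, 2.46-fold below asynchronous cells in late G1 (-1.30 ± 0.35, adjusted p = 0.0165) and 2.77-fold below in mitotic cells (-1.47 ± 0.35, adjusted p = 0.0124). Hist3h2a, its neighbour in the Hist3 cluster, was 1.97-fold lower in mitotic than in asynchronous cells (-0.98 ± 0.32, adjusted p = 0.0392) and was not called in G1. Its mitotic call was lost under 9 of 16 alternatives.

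Hist1h1a, an H1 gene, had 0.674 and 0.691 CPM in mitotic, 0.661 and 1.16 CPM in early G1, 1.46 and 1.41 CPM in late G1, and 1.04 and 3.09 CPM in asynchronous cells. The asynchronous pair spanned both late G1 libraries. It was called lower in mitotic than in asynchronous cells (-1.57 ± 0.54, adjusted p = 0.0469), and this call was lost under 10 of 16 alternatives. Hist1h1e, an H1 gene, had 0.126 and 0.389 CPM in mitotic, 0.331 and 0.232 CPM in early G1, 0.182 and 0.235 CPM in late G1, and 0.796 and 0.862 CPM in asynchronous cells. It was called lower in all 3 states than in asynchronous cells, 3.90-fold in late G1 (-1.96 ± 0.57, adjusted p = 0.0214). Its mitotic call was lost under 10 of 15 alternatives and its early G1 call under 10 of 16.

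Among H3 genes, Hist1h3e had 0.253 and 0.173 CPM in mitotic, 0.189 and 0.0773 CPM in early G1, 0.228 and 0.281 CPM in late G1, and 0.557 and 1.01 CPM in asynchronous cells. Hist1h3a had 0.0843 and 0.302 CPM in mitotic, 0.142 and 0.0773 CPM in early G1, 0.182 and 0.141 CPM in late G1, and 0.478 and 0.862 CPM in asynchronous cells. Hist1h3d had 0.211 and 0.216 CPM in mitotic, 0.189 and 0.270 CPM in early G1, 0.365 and 0.328 CPM in late G1, and 0.597 and 0.710 CPM in asynchronous cells. In all 3 genes the asynchronous libraries were the highest. In late G1, Hist1h3e was 3.00-fold lower than in asynchronous cells (adjusted p = 0.0435 in edgeR) and Hist1h3a 3.97-fold lower (adjusted p = 0.0393 in edgeR), while Hist1h3d was not called there (adjusted p = 0.120). The late G1 call of Hist1h3e was lost under 11 of 15 alternatives and that of Hist1h3a under 7 of 15.

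Hist1h2bj, an H2B gene, had 0.295 and 0.820 CPM in mitotic, 0.236 and 0.309 CPM in early G1, 0.182 and 0.141 CPM in late G1, and 0.597 and 1.83 CPM in asynchronous cells. Hist1h2bm, likewise H2B, had 0.337 and 0.389 CPM in mitotic, 0.567 and 0.155 CPM in early G1, 0.228 and 0.281 CPM in late G1, and 0.916 and 1.01 CPM in asynchronous cells. Hist1h2al, an H2A gene annotated as a pseudogene, had 0.421 and 0.345 CPM in mitotic, 0.142 and 0.116 CPM in early G1, 0.182 and 0.141 CPM in late G1, and 0.916 and 1.01 CPM in asynchronous cells. Hist1h2al was lowest in the 4 G1 libraries, while for Hist1h2bj the first mitotic library lay among them. Late G1 was below asynchronous cells 7.13-fold for Hist1h2bj (adjusted p = 0.0168 in edgeR), 3.72-fold for Hist1h2bm (adjusted p = 0.0269) and 5.79-fold for Hist1h2al (adjusted p = 0.00302).

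**Figure D3:**
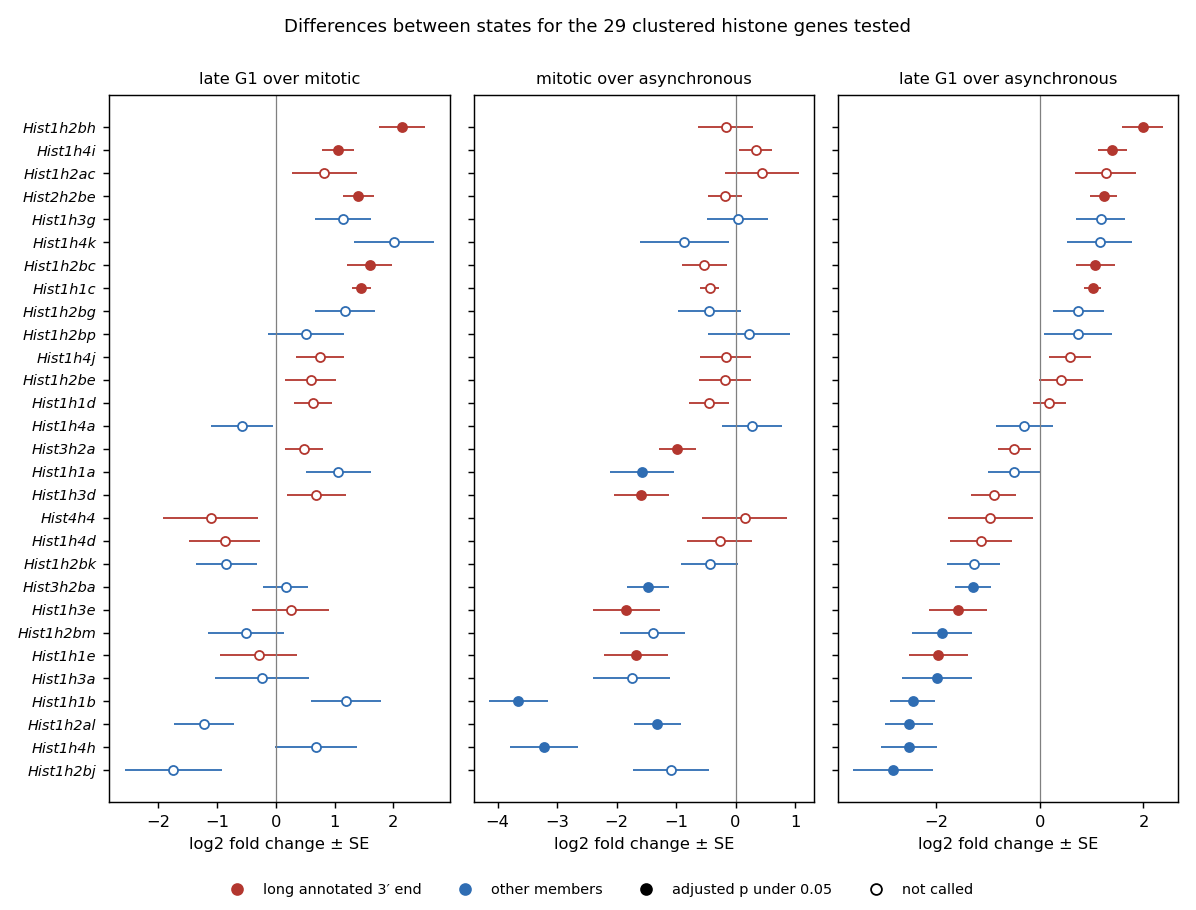
Log2 fold change with its standard error (horizontal axes) of the 29 tested members in late G1 over mitotic, mitotic over asynchronous and late G1 over asynchronous cells, filled where the adjusted p was under 0.05, red for long-ended members and blue for the others. All 5 called rises of late G1 over mitotic cells are red, and the members called lower in late G1 than in asynchronous cells are 7 blue and 2 red ones. The panels against asynchronous cells share the asynchronous libraries, through which most of the members called lower passed the filter. Hist1h2bh passed it through the G1 libraries.

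The counts behind these asynchronous comparisons depended on single libraries. The share of all genes called may move with each fit too and is not given here. Changes in these counts are therefore not a result about histone genes. For late G1 against asynchronous cells the count was 24 without the first and 12 without the second asynchronous library, 6 without either late G1 library, 11 without either early G1 library and 13 without either mitotic library. For early G1 it was 18 and 8 without the first and second asynchronous library, 4 and 2 without the first and second early G1 library, 10 without either late G1 library and 14 without either mitotic library. For mitotic cells it was 16 and 4 without the first and second asynchronous library, 2 and 5 without the first and second mitotic library, and 4 without any of the G1 libraries. The direction of the calls also moved: without the second asynchronous library 8 members were higher and 4 lower in late G1, 4 higher and 4 lower in early G1, and 1 higher and 3 lower in mitotic cells. Without the first, 5 were higher and 19 lower in late G1, 2 higher and 16 lower in early G1, and 0 higher and 16 lower in mitotic cells.

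Split by annotated end, the long-ended members held every member called higher. Of the 15 long-ended members tested, 5 were higher and none lower in late G1 than in mitotic cells, and 5 were higher and 2 lower in late G1 than in asynchronous cells. Of the 14 short-ended members tested, none was called in late G1 over mitotic cells, and none was higher and 7 were lower in late G1 than in asynchronous cells. Hist1h1b, Hist1h4h, Hist1h2bj, Hist1h2bm, Hist1h2al and Hist1h3a among them passed the filter through the asynchronous pair. So did the long-ended Hist1h1e, Hist1h3d and Hist1h3e. For such members a lower call against asynchronous cells was nearly fixed in advance. The long-ended Hist1h2bh passed through the G1 libraries, so its higher calls were nearly fixed in the same way. In early G1 against asynchronous cells the calls were 3 higher and 3 lower for long-ended and 0 higher and 6 lower for short-ended members. In mitotic against asynchronous cells the classes were alike, with none higher and 4 of 15 long-ended and 5 of 14 short-ended members lower. The most abundant members, Hist1h1c, Hist1h2bc and Hist1h4i, are long-ended, and abundance affects which members can be called. A difference between these classes was not tested.

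The summed levels include members that failed the filter. The 22 long-ended members summed to 30.004 and 37.1 CPM in mitotic, 57.5 and 51.2 CPM in early G1, 81.4 and 84.0 CPM in late G1, and 37.3 and 53.0 CPM in asynchronous cells. With Hist1h1c, Hist1h2bc and Hist1h4i left out, the other 19 summed to 7.80 and 8.68 CPM in mitotic, 10.7 and 10.6 CPM in early G1, 14.0 and 12.8 CPM in late G1, and 9.44 and 15.0 CPM in asynchronous cells, so their late G1 libraries lay within the range of the asynchronous pair. The 47 short-ended members summed to 8.64 and 8.55 CPM in mitotic, 8.83 and 9.16 CPM in early G1, 11.3 and 10.5 CPM in late G1, and 13.4 and 27.0 CPM in asynchronous cells. Both sets stood higher in late G1 than in mitotic libraries, without overlap, and the short-ended set was highest in asynchronous cells. The asynchronous libraries themselves differed for the short-ended set by more than any pair of the other 3 states.

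**Figure D4:**
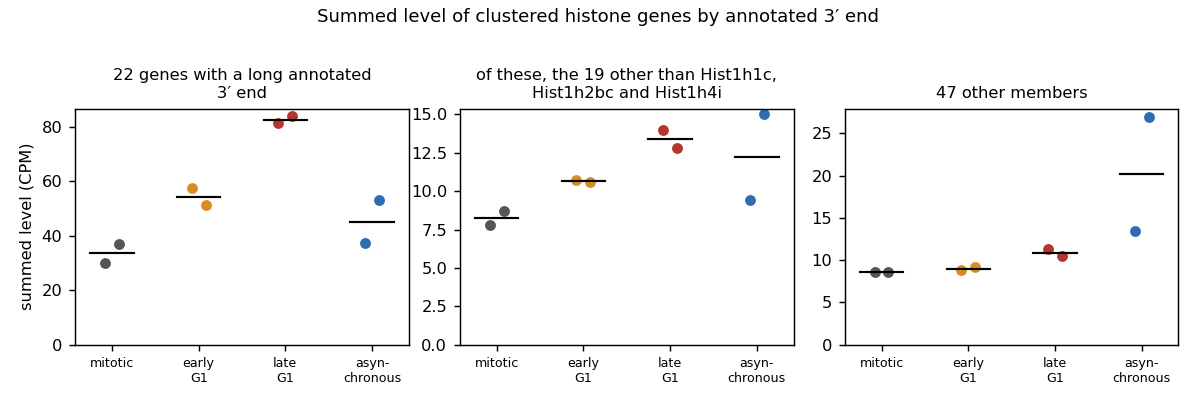
Summed level in CPM (vertical axes, each from 0) of the 22 long-ended members, of the 19 of these that remain without the 3 most abundant members, and of the 47 short-ended members, in each library (points) with the group mean (line). The long-ended sum peaks in late G1 at 81.4 and 84.0 CPM, and the short-ended sum in asynchronous cells at 13.4 and 27.0 CPM.

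All 69 members together summed to 38.6 and 45.7 CPM in mitotic, 66.4 and 60.3 CPM in early G1, 92.7 and 94.5 CPM in late G1, and 50.7 and 80.0 CPM in asynchronous cells. The late G1 mean was 2.22 times the mitotic mean, with no overlap. Early G1 lay within the range of the asynchronous pair. With 2 libraries on each side no exact permutation test of such a sum can reach the threshold, so none was made.

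In each of the 5 classes the mean summed level was higher in late G1 than in mitotic cells, and a difference between classes was not tested. H1 summed to 15.2 and 15.5 CPM in mitotic, 28.4 and 23.9 CPM in early G1, 37.3 and 41.5 CPM in late G1, and 21.3 and 26.3 CPM in asynchronous cells. H2B summed to 10.96 and 18.0 CPM in mitotic, 24.2 and 22.7 CPM in early G1, 35.2 and 34.9 CPM in late G1, and 16.1 and 27.4 CPM in asynchronous cells. H4 summed to 7.16 and 6.43 CPM in mitotic, 8.50 and 7.84 CPM in early G1, 12.4 and 10.3 CPM in late G1, and 5.49 and 11.3 CPM in asynchronous cells. By their means, these 3 sums were highest in late G1. H2A summed to 2.78 and 3.71 CPM in mitotic, 3.59 and 3.44 CPM in early G1, 4.74 and 4.22 CPM in late G1, and 4.46 and 8.87 CPM in asynchronous cells. H3 summed to 2.53 and 2.03 CPM in mitotic, 1.70 and 2.47 CPM in early G1, 3.06 and 3.57 CPM in late G1, and 3.38 and 6.19 CPM in asynchronous cells. H2A and H3 were highest in the second asynchronous library.

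Npat, Casp8ap2, Slbp and Ccne2, which act on histone genes or their mRNA, were higher in late G1 than in mitotic cells. Npat, the coactivator that cyclin E and Cdk2 switch on at histone loci, had 21.6 and 20.3 CPM in mitotic, 68.2 and 78.3 CPM in early G1, 89.6 and 91.4 CPM in late G1, and 55.4 and 26.8 CPM in asynchronous cells. It was 4.31-fold higher in late G1 than in mitotic cells (2.11 ± 0.29, adjusted p = 0.00713). Casp8ap2, also called FLASH, a scaffold of histone mRNA processing, had 35.0 and 32.7 CPM in mitotic, 86.6 and 97.7 CPM in early G1, 106 and 111 CPM in late G1, and 58.0 and 22.9 CPM in asynchronous cells. It was 3.21-fold higher in late G1 than in mitotic cells (1.68 ± 0.35, adjusted p = 0.0252). For both, each G1 library lay above all mitotic and asynchronous ones.

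Slbp, the stem-loop binding protein, had 74.2 and 64.8 CPM in mitotic, 123 and 120 CPM in early G1, 132 and 132 CPM in late G1, and 68.4 and 49.0 CPM in asynchronous cells. Its late G1 level was 1.90-fold the mitotic one (0.92 ± 0.17, adjusted p = 0.0157) and 2.25-fold the asynchronous one (1.17 ± 0.17, adjusted p = 0.00106). Ccne2, cyclin E2, had 11.3 and 10.2 CPM in mitotic, 39.1 and 38.8 CPM in early G1, 48.2 and 51.1 CPM in late G1, and 11.8 and 7.15 CPM in asynchronous cells. It was 4.61-fold higher in late G1 than in mitotic cells (2.21 ± 0.22, adjusted p = 0.00259).

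**Figure D5:**
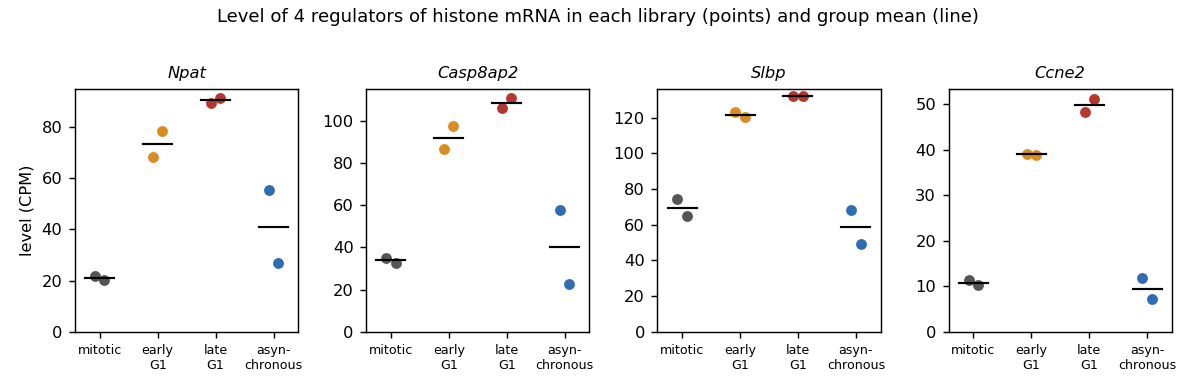
Level in CPM (vertical axes, each from 0) of Npat, Casp8ap2, Slbp and Ccne2 in each library (points) with the group mean (line). In each of the 4 genes all G1 libraries lie above all mitotic and asynchronous libraries, and late G1 is highest, at 89.6 and 91.4 CPM for Npat.

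Of 12 regulators of histone gene transcription, 5 were higher and none lower in late G1 than in mitotic cells, with a median log2 fold change of 0.58, where 5.43% of all tested genes were called higher and 4.04% lower. Of 29 tested genes of histone mRNA 3′ processing and decay, a list that also holds Npat and Casp8ap2, 4 were higher and 1 lower, with a median of -0.07. Of 27 histone chaperones 1 was higher, Ubn1, a subunit of the H3.3 depositing complex (0.61 ± 0.16, adjusted p = 0.0487), and the median was 0.02. Of 20 genes of DNA synthesis 2 were higher, the helicase gene Mcm4 (0.80 ± 0.20, adjusted p = 0.0432) and Rrm2 of deoxynucleotide synthesis (0.69 ± 0.16, adjusted p = 0.0316), with a median of 0.15. The median over all genes was -0.01.

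Histone variant genes outside the clusters mostly make ordinary poly(A) mRNA through the cell cycle. Of 11 such genes, none was called higher (5.43% of all tested genes) and 3 were called lower (4.04%) in late G1 than in mitotic cells. Their median log2 fold change was -0.36. The 3 were H3f3b, encoding H3.3, at 484 ± 13.6 CPM in late G1 and 662 ± 39.8 CPM in mitotic cells (adjusted p = 0.0436 in edgeR), Cenpa, the centromeric H3 variant, at 191 ± 4.29 CPM in late G1 and 264 ± 16.0 CPM in mitotic cells (adjusted p = 0.0465 in edgeR), and H2afy2, a macroH2A gene, at 14.2 ± 0.250 CPM in late G1 and 24.5 ± 2.65 CPM in mitotic cells (adjusted p = 0.0207 in edgeR; SD, n = 2). H3f3a, which also encodes H3.3, stood at 18.6 and 14.6 CPM in late G1 and 9.10 and 9.50 CPM in mitotic cells, a difference that was not called (0.83 ± 0.22, adjusted p = 0.0524 in edgeR). Against asynchronous cells 1 was higher and 8 lower in late G1, where 22.7% of all tested genes were called higher and 26.0% lower.

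H2afx, whose product marks DNA breaks once phosphorylated, is known to make both a stem-loop mRNA and a poly(A) mRNA. It had 71.3 and 85.8 CPM in mitotic, 156 and 132 CPM in early G1, 89.0 and 76.9 CPM in late G1, and 253 and 488 CPM in asynchronous cells. It was 4.71-fold lower in mitotic (-2.24 ± 0.29, adjusted p = 0.000845) and 4.46-fold lower in late G1 than in asynchronous cells (-2.16 ± 0.29, adjusted p = 0.000750). Its early G1 libraries lay above both the mitotic and the late G1 ones, a difference that was not called (adjusted p = 0.114 over mitotic cells).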

How the data were processed

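Values deposited by the authors are raw counts for each Ensembl gene, not normalised. TopHat2, SAMtools, HTSeq and mm10 are named without versions per the submitters' processing notes. Per the labels' protocols, libraries came from a stranded kit that selects poly(A) RNA, with 50-base single-end reads. Sources used here do not give the annotation release, the strand setting or the handling of multiply matching reads.

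Symbols, coordinates (1-based) and transcripts were taken from GENCODE M21 (GRCm38). Tests used edgeR 4.0.16 (R 4.3.3): filterByExpr (minimum count 10), TMM scaling and the robust quasi-likelihood test on all 8 libraries (4 residual degrees of freedom), with Benjamini-Hochberg adjustment over all 19101 tested genes and calls at an adjusted p under 0.05, two-sided. Every adjusted p is from this test unless DESeq2 1.42.0 is named. The procedure was tested on simulated data. Samples were grouped by their titles. Values in every library are given for the 12 members with the highest mean CPM and for every further member called in any of the 6 comparisons, 22 in all, and from the related lists for Slbp, Npat, Casp8ap2 and the called genes with the smallest p. Per-library values of Ccne2 and H2afx were added after their values were seen, as was the division by annotated end. The members and lists were chosen with earlier results of these data known. Alternatives changed the scaling, the filter, the fitted libraries, the block and the tool.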

Additional observations from a re-analysis of the deposited data

How the results depend on the processing

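Counts of called members are given in the order mitotic against asynchronous, early G1 against mitotic, late G1 against early G1, late G1 against mitotic, early G1 against asynchronous and late G1 against asynchronous cells, where edgeR gave 9, 2, 0, 5, 12 and 14. A minimum count of 30 left 10 members to test and gave 5, 1, 0, 4, 4 and 6. DESeq2 gave 2, 1, 0, 5, 7 and 9. Fitting the 2 groups of a comparison alone gave 2, 2, 3, 6, 7 and 12. Without both first libraries of mitotic and asynchronous cells, chosen after seeing the data and with each lone sample assumed to vary like the G1 groups, the counts were 13, 7, 3, 8, 24 and 25. Leaving out 1 library at a time, with the lone sample of its group assumed to vary like the other groups, gave 2 to 16, 0 to 3, 0, 0 to 6, 2 to 18 and 6 to 24. No other scaling or filter moved a count by more than 1.5 times. For these fits, and for those with a library left out above, the share of all genes called is not given. Whether the changes in count are particular to the members was therefore not tested.

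The log2 ratio of the summed level of all members ranged, with 1 library left out, from -0.92 to -0.27, 0.47 to 0.71, 0.50 to 0.63, 1.03 to 1.28, -0.34 to 0.32 and 0.23 to 0.88. The ratio of early G1 to asynchronous cells, -0.05 with all libraries, turned to 0.02 without the second early G1 library and to 0.32 without the second asynchronous library.

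Replicate differences over 12037 genes correlated at 0.621 between mitotic and asynchronous cells, -0.365 between early G1 and asynchronous cells, -0.135 between mitotic and early G1 cells, and -0.0437 to 0.0572 between the other groups, so the numbers were not taken to pair the samples. A replicate block gave 9, 1, 0, 4, 11 and 13 calls. With the early G1 numbers crossed, the block gave 2 calls for early G1 against mitotic and 13 for early G1 against asynchronous cells. For 42 calls of single members, each under 15 to 17 alternatives, 663 values were computed: 464 stayed past the threshold, 199 did not, and 0 turned in direction. At these depths 40 members did not pass the filter and were not tested. A planned match of windows to the genome was not run, and windows were matched to transcripts.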
